A study of Mus musculus with 24 samples.

Results

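The 10 genes described here encode regulators of how mitochondria are made and of how they fuse and divide. They were taken as a fixed list of symbols, and all 10 were found among the 23420 genes in each of 24 libraries and passed the filter on low values. The libraries were made from BALB/c mouse spleen, with 3 libraries in each of 8 groups. These were naive B cells, cells cultured with activation in vitro for 4 h, 12 h or 24 h, cells labelled as activated in vivo, and germinal center (GC) cells from an early, a peak and a late stage. GC B cells are the dividing, antibody-mutating B cells of an immune response. Cells were purified with beads and sorted, and polyadenylated RNA was sequenced. The labels used here name no immunogen, day of sampling, culture stimulus, animal or sex, and all groups share the strain, with no genetic change named. A replicate is therefore 1 library, and a test measures the spread between libraries, which may be technical.

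Mitochondrial biogenesis depends on nuclear transcription factors such as NRF1, GABP and the estrogen-related receptors, which the PGC-1 family of coactivators helps to turn on. Those factors act on nuclear genes whose products are imported to copy and transcribe the small mitochondrial genome. Mitochondrial shape is set by large GTPases that join outer and inner membranes or cut the organelle, and naive lymphocytes that become activated grow and remodel their mitochondria.

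Levels are given as the deposited log2 values, close to log2 CPM, a read count scaled to a fixed library total: every library summed to between 990678 and 1008194 when raised back from log2. Such a value is a share of the library's messenger RNA, so a change in RNA per cell does not show in it, and fewer cells of a type and less RNA per cell cannot be told apart. Differences are log2 differences with the standard error (SE) of a limma model fitted over 11885 genes and all 24 libraries, and a gene was called when its Benjamini-Hochberg adjusted p was under 0.05. The values look as if a replicate term was taken out before deposit, which would make these SE and adjusted p somewhat too small. No read counts were used here, so the depth of each library is unknown.

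Markers followed the labels in most respects. A summed list of GC genes stood at 1310 to 1740 CPM in the 9 GC libraries and at 31.7 to 137 CPM elsewhere, and a B cell list stood at 6850 to 7260 CPM in naive libraries and at 2650 to 2860 CPM at 4 h. The summed T cell list, 45.5 to 49.7 CPM in naive libraries and 127 to 219 CPM elsewhere, was carried by Lck (mean log2 5.38 in naive and 6.93 to 7.69 in the other groups). Cd3e, a defining T cell gene, was at or below 2.33 in every library, and its mean was 0.47 in naive cells, -1.55 after in vivo activation and -3.42 at 12 h. A macrophage and monocyte list reached 474 to 2070 CPM in late GC libraries, against 113 to 305 CPM in early and peak GC libraries and at most 41.2 CPM in the rest. A neutrophil list gave 70.9 to 997 CPM in late, 20.1 to 85.7 CPM in peak and 20.1 to 117 CPM in early GC libraries. An erythroid list gave 731 to 1400 CPM in late, 170 to 203 CPM in peak and 306 to 736 CPM in early GC libraries, 89.4 to 99.8 CPM in naive, 13.4 to 19.6 CPM in in vivo activated and at most 9.17 CPM in cultured cells. The Y-linked gene Ddx3y was at -6.22 to -6.14, the floor of the files, in the 12 libraries of the GC stages and of in vivo activation, and between 4.50 and 5.77 in the 12 that were naive or from culture. Xist, the X-inactivation gene, had group means of 8.07 to 8.43 in the former and of 6.69 to 7.22 in the latter. Naive and cultured libraries thus held both Y-linked and Xist RNA, and the mix of sexes behind each library was not tested. The sex or source of the mice therefore cannot be told apart from the GC or in vivo condition wherever either is set against naive cells. The comparisons among GC stages, of peak GC with in vivo activated cells, and of in vitro with naive cells do not cross that split.

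Before the values, the upstream sequences of 4 of the genes are shown, because 2 of them hold a letter match for a factor whose own gene, Nrf1, is among the 10, and the other 2 hold a match for the GABP partner factor. Of the 10 genes, Ppargc1b was left out of the promoter search, and the other 9 were examined in RefSeq windows of 300 bases. These windows held 250 bases before and 50 after the start (build GRCm38.p6, the same assembly as mm10). Searched on both strands, the NRF1 core GCGCATGC was in 2.71% of 32851 such windows in the genome, and among the 9 genes in Opa1 and Esrra. The ETS core CCGGAAG, which GABPA recognises, was in 8.86% of windows, and in Tfam, Mfn1, Polg and Dnm1l. In Dnm1l it lay at base 13 after the start, on the opposite strand and in 1 of 2 windows. In Tfam, Mfn1 and Polg it lay before the start. The letters AAGGTCA (estrogen-related receptors, 4.72% of windows), CACGTG (E-box, 7.15%) and AAGATGG (YY1, 6.34%) were in none of the windows of these genes. A match is a description of letters and not a bound site. The shares are per window and not per gene: Mfn2 had 3 windows, and Nrf1 and Dnm1l had 2 each. All windows with a match held 53.3% to 70.3% G and C, against a median of 52.7% over all windows. The shares were not adjusted for this. The 250 bases before the start are printed on the gene's strand, 5′ to 3′, with the matches in capitals: the NRF1 core of Esrra lies on the opposite strand, and Opa1 holds 2 overlapping cores, 1 on each strand. The windows are chr10:71238045-71238294 (minus strand) for Tfam, chr3:32529232-32529481 (plus) for Mfn1, chr16:29579084-29579333 (plus) for Opa1 and chr19:6921809-6922058 (minus) for Esrra.
Tfam: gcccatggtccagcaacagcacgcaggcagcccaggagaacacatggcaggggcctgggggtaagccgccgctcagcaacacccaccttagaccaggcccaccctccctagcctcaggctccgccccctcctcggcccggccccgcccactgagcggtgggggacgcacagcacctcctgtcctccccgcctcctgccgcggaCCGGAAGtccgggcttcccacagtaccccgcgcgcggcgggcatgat
Mfn1: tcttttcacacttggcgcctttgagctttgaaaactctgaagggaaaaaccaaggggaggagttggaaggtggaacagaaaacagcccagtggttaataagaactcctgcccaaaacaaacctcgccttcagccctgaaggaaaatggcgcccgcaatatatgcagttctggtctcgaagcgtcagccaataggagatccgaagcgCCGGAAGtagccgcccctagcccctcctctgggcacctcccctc
Opa1: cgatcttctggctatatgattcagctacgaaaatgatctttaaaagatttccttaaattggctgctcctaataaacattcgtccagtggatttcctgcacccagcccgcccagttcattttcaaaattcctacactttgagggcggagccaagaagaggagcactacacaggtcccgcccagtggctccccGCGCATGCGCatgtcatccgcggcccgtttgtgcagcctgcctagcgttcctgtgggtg
Esrra: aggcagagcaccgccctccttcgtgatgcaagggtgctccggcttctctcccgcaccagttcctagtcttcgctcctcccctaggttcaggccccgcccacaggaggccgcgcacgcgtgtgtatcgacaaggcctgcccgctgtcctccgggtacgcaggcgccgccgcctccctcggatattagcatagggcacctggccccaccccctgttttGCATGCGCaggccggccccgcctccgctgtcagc

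The 10 genes did not move as a block. Activation in vitro raised the coactivator gene Pprc1, the fusion genes Mfn1, Mfn2 and Opa1 and the fission gene Dnm1l at all 3 times, and Ppargc1b, Nrf1 and Tfam fell at all 3. In peak GC cells Ppargc1b, Tfam, Pprc1, Esrra, Mfn2 and Mfn1 were lower than in naive cells, and Dnm1l, Polg and Nrf1 were higher. Most of the genes varied less across the 8 groups than a typical gene: the distance from the highest to the lowest group mean was 0.64 to 1.23 on the log2 scale for 8 of them, 2.14 for Ppargc1b and 2.79 for Pprc1, and the median over all genes tested was 1.66.

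**Figure D1:**
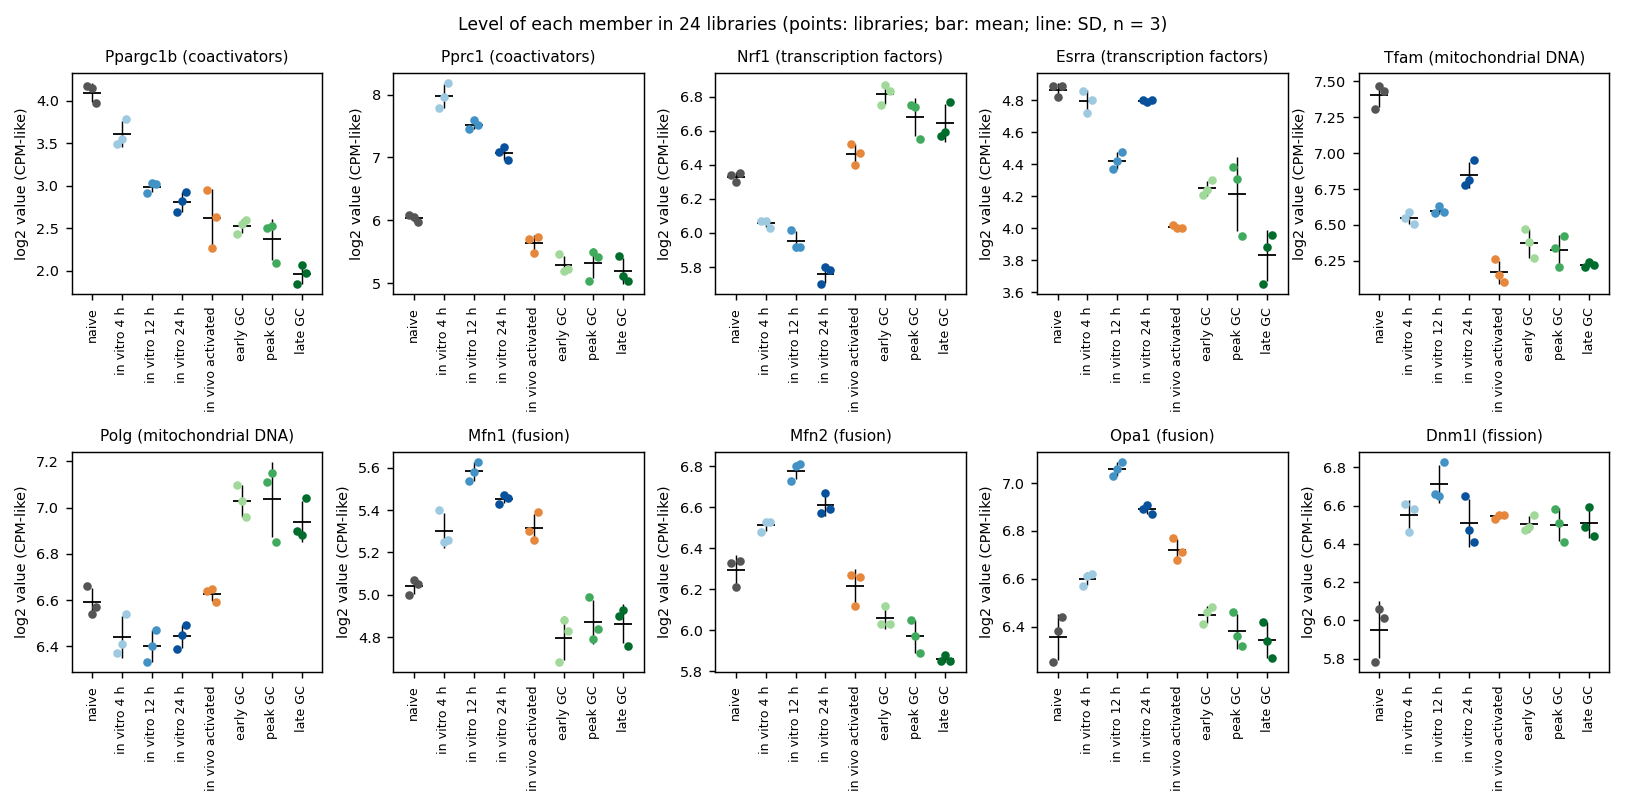
Deposited log2 level (about log2 CPM) of each of the 10 genes in each of the 24 libraries, grouped by the 8 labelled groups, with points for libraries, a bar for the group mean and a line for the SD (n = 3). Pprc1 stands highest at 4 h (mean 7.98) and Ppargc1b, Tfam and Esrra stand highest in naive cells (means 4.09, 7.40 and 4.87).

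Pprc1 (chr19:46044886-46072915, mm10 with GENCODE vM21, as for the positions of the other genes) encodes PRC, the PGC-1-related coactivator, whose transcript is known as an early response to growth signals. Its level was 6.08, 6.05 and 5.97 in the naive libraries and 7.79, 7.96 and 8.18 at 4 h. By 12 h the libraries were at 7.46, 7.59 and 7.52, and by 24 h they were at 7.08, 7.16 and 6.96. No 2 of these 4 groups overlapped, and all 3 of the 4 h libraries were above every other library. The rise over naive cells was 1.94 ± 0.12 at 4 h (SE, n = 3 per group, adjusted p = 9.62e-13 by limma), a 3.85-fold higher level, and 11.2% of the genes tested changed at least as much in that comparison. The rise was 1.49 ± 0.12 at 12 h and 1.03 ± 0.12 at 24 h, and both later steps fell, by 0.45 from 4 h to 12 h (adjusted p = 0.00204) and by 0.46 from 12 h to 24 h (adjusted p = 0.00219). Cells activated or in GCs in vivo lay on the other side of naive cells: the in vivo activated libraries were at 5.70, 5.48 and 5.73 and the peak GC libraries at 5.04, 5.50 and 5.42. Pprc1 was lower than in naive cells by 0.40 ± 0.12 in in vivo activated cells (adjusted p = 0.00388) and by 0.71 ± 0.12 in peak GC cells (adjusted p = 9.48e-06). Neighbours among the 4 lowest groups (in vivo activated, peak, early and late GC) had overlapping libraries, and the in vivo activated libraries were apart from the naive ones.

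Ppargc1b, which encodes the coactivator PGC-1 beta (chr18:61298136-61400431), had its highest level in naive cells, at 4.17, 4.15 and 3.97. Levels were 3.49, 3.55 and 3.78 at 4 h, 2.91, 3.03 and 3.02 at 12 h, and 2.69, 2.82 and 2.92 at 24 h. The naive, 4 h and 12 h libraries were separate from each other and the 12 h and 24 h libraries overlapped. Ppargc1b fell by 0.49 ± 0.14 at 4 h (adjusted p = 0.00359), by 1.11 ± 0.14 at 12 h and by 1.29 ± 0.14 at 24 h (adjusted p = 1.41e-08). The in vivo activated libraries, at 2.95, 2.26 and 2.63, were the most spread of any group for this gene. Peak GC libraries were at 2.50, 2.52 and 2.09 and late GC libraries at 1.84, 2.07 and 1.97. Peak GC cells had a 3.31-fold lower level than naive cells (log2 difference -1.72 ± 0.14, adjusted p = 1.15e-10), and 18.5% of the genes tested differed by at least as much. Per kilobase of exon, Pprc1 exceeded Ppargc1b in every group, by a log2 difference of 1.29 ± 0.06 (SD, n = 3) in naive cells and of 3.88 ± 0.03 at 12 h.

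Nrf1 (chr6:30047988-30153458) encodes nuclear respiratory factor 1, a transcription factor of many nuclear genes for mitochondrial proteins. Its levels had the order early, peak and late GC (6.82, 6.68 and 6.65), in vivo activated (6.47), naive (6.33), and 4 h, 12 h and 24 h (6.05, 5.95 and 5.76). Neighbours in that order had separate libraries except for peak and late GC, though the lowest early and highest peak GC libraries both round to 6.75. The steps from 4 h to 12 h (-0.10, adjusted p = 0.156 by limma) and from early to peak GC (-0.14, 0.149) were not called. In peak GC cells it was higher than in naive cells by 0.35 ± 0.06 (adjusted p = 1.26e-05), with libraries at 6.75, 6.74 and 6.55 against 6.34, 6.30 and 6.35. It fell in vitro by 0.28, 0.38 and 0.57 at the 3 times, with adjusted p of 2.32e-04 at 4 h and 5.85e-09 at 24 h. Its difference between in vivo activated and naive cells, 0.14 ± 0.06, passed narrowly (adjusted p = 0.0439) and missed the threshold with a replicate block (adjusted p = 0.0631), with no filter on low values (0.0573), or without any 1 of in vivo activated replicates 1 and 3 and naive replicates 1, 2 and 3 (0.0626 to 0.147).

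Esrra (chr19:6910977-6921813), the gene of the estrogen-related receptor alpha that PGC-1 coactivators bind, was highest in naive cells, at 4.89, 4.82 and 4.89. The 4 h and 24 h libraries were at 4.72 to 4.86, and those differences from naive cells, -0.07 ± 0.09 at each time, were not called. At 12 h the level was 4.37, 4.42 and 4.48, below both neighbouring times with no overlap, and the fall from naive cells was 0.44 ± 0.09 (adjusted p = 8.03e-05). Esrra was also lower than in naive cells by 0.86 ± 0.09 in in vivo activated cells, at 4.02, 4.00 and 4.00, and by 0.65 ± 0.09 in peak GC cells (adjusted p of 5.02e-09 and 4.03e-07).

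Tfam (chr10:71225464-71238280) encodes the factor that packs mitochondrial DNA and starts its transcription. Its naive libraries, at 7.31, 7.47 and 7.43, were above all 21 others, which lay between 6.10 and 6.95. Tfam was 1.81-fold lower at 4 h and 2.35-fold lower in in vivo activated cells, the largest difference for this gene (-1.23 ± 0.06, adjusted p = 1.74e-14). Within the culture series, libraries at 4 h were at 6.55, 6.59 and 6.51, those at 12 h at 6.58, 6.63 and 6.59, and those at 24 h at 6.78, 6.81 and 6.95. The 4 h and 12 h libraries overlapped, and their difference was not called (0.05 ± 0.06, adjusted p = 0.512). The level at 24 h was above that at 12 h by 0.25 ± 0.06 (adjusted p = 0.00196), and still below naive by 0.56 ± 0.06. In peak GC cells, at 6.34, 6.21 and 6.42, Tfam was lower than in naive cells by 1.08 ± 0.06 (adjusted p = 1.99e-13).

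Polg (chr7:79446231-79466362) encodes the catalytic subunit of the polymerase that copies mitochondrial DNA, and it had the smallest span of the 10 genes, 0.64. The 9 GC libraries lay between 6.85 and 7.15 and the other 15 between 6.33 and 6.66. Peak GC cells were above naive cells by 0.45 ± 0.07 (adjusted p = 2.99e-06), in the opposite direction to Tfam, and in vivo activated cells were not separated from naive cells (0.04 ± 0.07, 95% interval -0.11 to 0.18). In vitro differences from naive cells were small: -0.15 at 4 h (adjusted p = 0.0546, not called), -0.19 at 12 h (adjusted p = 0.014) and -0.15 at 24 h (adjusted p = 0.0472). These 3 results turned on single libraries. The call at 12 h was lost without naive replicate 1 (adjusted p = 0.0678) or 12 h replicate 1 (0.07), and the call at 24 h without naive replicate 1 or 3 or 24 h replicate 1 or 2 (0.0645 to 0.171). It was also lost with no filter on low values (0.0635), with limma without trend and robust (0.0612), with median centring (0.0517) and with a replicate block (0.0639). A call at 4 h was gained without naive replicate 2 (0.049) or 4 h replicate 3 (0.0213).

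**Figure D2:**
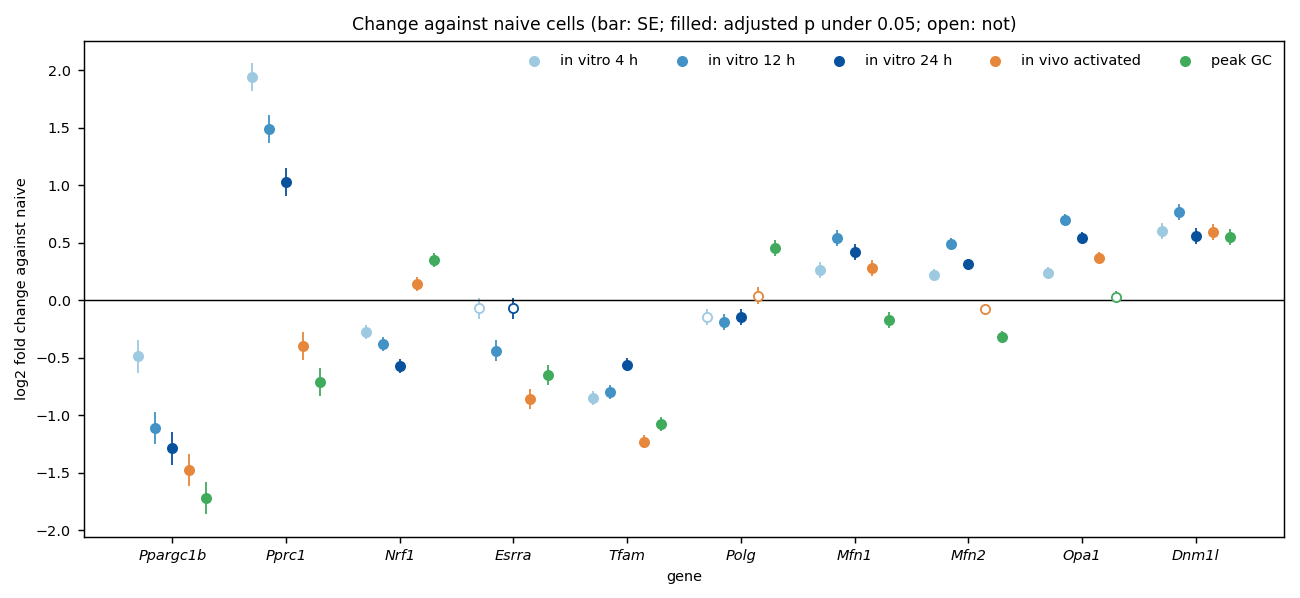
Log2 difference from naive cells for each of the 10 genes in peak GC, in vivo activated and in vitro activated cells at 4 h, 12 h and 24 h, with bars for the SE of the limma fit, filled points where the adjusted p was under 0.05 and open points where it was not. Pprc1 lies at 1.94 at 4 h and at -0.71 in peak GC cells, Dnm1l lies above 0 in all 5 comparisons, and Tfam lies below 0 in all 5.

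The mitofusin genes Mfn1 (chr3:32529465-32579239) and Mfn2 (chr4:147873599-147904704) encode outer membrane fusion GTPases, and Opa1 (chr16:29579334-29654884) encodes the GTPase that fuses inner membranes and holds cristae together. For all 3 the 12 h libraries were the highest of any group: 5.54, 5.58 and 5.63 for Mfn1, 6.73, 6.80 and 6.81 for Mfn2, and 7.03, 7.06 and 7.09 for Opa1. Naive libraries were at 5.0, 5.07 and 5.05 for Mfn1, 6.33, 6.21 and 6.34 for Mfn2, and 6.25, 6.38 and 6.44 for Opa1. The 12 h and naive libraries of each gene did not overlap. The differences at 12 h were 0.54 ± 0.07 for Mfn1, 0.49 ± 0.05 for Mfn2 and 0.70 ± 0.05 for Opa1 (adjusted p of 8.41e-08, 1.57e-08 and 1.35e-11). From 12 h to 24 h Mfn2 fell by 0.17 (adjusted p = 0.0088) and Opa1 by 0.17 (adjusted p = 0.00979), and the difference of Mfn1, -0.13, was not called (adjusted p = 0.11).

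In vivo the fusion genes differed among themselves. In vivo activated cells had more Mfn1 (5.30, 5.26 and 5.39) and Opa1 (6.77, 6.68 and 6.71) than naive cells, by 0.28 ± 0.07 and 0.37 ± 0.05 (adjusted p of 6.37e-04 and 1.05e-06). Mfn2 was not called there (-0.08 ± 0.05, 95% interval -0.19 to 0.04). Peak GC cells had less Mfn2 than naive cells, by a difference of -0.32 ± 0.05 (adjusted p = 8.44e-06), with libraries at 6.05, 5.97 and 5.89. Opa1 in peak GC cells, at 6.46, 6.36 and 6.32, overlapped with naive cells, and its difference of 0.03 had an interval of -0.08 to 0.14. For Mfn1 the difference in peak GC cells was -0.17 ± 0.07 (adjusted p = 0.0241), and that call was lost without peak GC replicate 2 or 3 or naive replicate 2 or 3 (adjusted p 0.0576 to 0.115) or in a fit of those 2 groups alone (0.0752). Per kilobase of exon, Mfn2 exceeded Mfn1 in every group, by log2 differences of 1.14 ± 0.06 (SD, n = 3) in in vivo activated cells to 1.5 ± 0.08 in early GC cells.

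Dnm1l (chr16:16312230-16358959) encodes DRP1, the GTPase that constricts and divides mitochondria. Naive cells were its lowest group, at 5.78, 6.06 and 6.01, and the 21 other libraries were all higher, between 6.41 and 6.83. It was higher than in naive cells in each of the 5 comparisons, by 0.55 ± 0.07 in peak GC cells, 0.59 ± 0.07 in in vivo activated cells, 0.60 at 4 h, 0.77 at 12 h and 0.56 at 24 h (adjusted p from 1.51e-09 to 3.86e-07). These comparisons share the 3 naive libraries, so a low naive value enters all of them. Apart from the step from 12 h to its neighbour at 4 h, the libraries of the activated and GC groups overlapped along the order of means. Per kilobase of exon, Dnm1l exceeded Opa1 by 0.65 to 0.76 on the log2 scale in the GC groups, by 0.42 in in vivo activated cells, by 0.55 at 4 h, 0.25 at 12 h and 0.22 at 24 h, and by 0.19 in naive cells. That order rests on the exon unions, 5203 bases for Dnm1l and 7875 for Opa1, which need not be the length of the expressed transcript. Without the length term Opa1 was above Dnm1l in naive (6.35 against 5.95), in vivo activated and cultured cells. Dnm1l was above Opa1 in the GC groups alone.

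Set against the background, the number of called members was ordinary for comparisons in which most genes changed. In peak GC against naive cells 3 were higher and 6 lower, with 40.5% of all genes tested higher and 39.3% lower. The median difference of the 10 genes was -0.25 and that of all genes tested was 0.01. The nearly equal distributions of the libraries hold a median over all genes close to 0, so that value is a reference point and not a result. In in vivo activated against naive cells 4 were higher and 4 lower (background 39.2% and 40.1%), with a median of -0.02 for the 10 genes and for all genes. At 4 h 5 were higher and 3 lower (38.9% and 39.1%), at 12 h 5 and 5 (41.7% and 39.2%), and at 24 h 5 and 4 (42.2% and 42.5%). The medians of the 10 genes at the 3 times were 0.07, 0.15 and 0.12. From 4 h to 12 h, 3 rose (Mfn1, Mfn2 and Opa1) and 3 fell (Ppargc1b, Pprc1 and Esrra), against 34.6% and 27.2% of all genes. From 12 h to 24 h, Tfam and Esrra rose, and Pprc1, Nrf1, Mfn2, Opa1 and Dnm1l fell, against 22.5% and 34.8%. The last of these, Dnm1l, was lost without 12 h replicate 3 or 24 h replicate 2 or 3 (adjusted p 0.0714 to 0.136).

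Peak GC and in vivo activated cells, which are both dividing populations by their markers (1860 to 2810 CPM of a list of division genes, against 66.0 to 81.4 CPM in naive cells), had their largest differences among the 10 genes in Mfn1, Polg and Opa1. Mfn1 was lower in peak GC cells by a difference of -0.44 ± 0.07, Opa1 by -0.34 ± 0.05 and Mfn2 by -0.25 ± 0.05 (adjusted p of 2.95e-06, 4.88e-06 and 2.85e-04), with no overlap between libraries. Polg was higher by 0.41 ± 0.07 and Nrf1 by 0.22 ± 0.06 (adjusted p of 1.37e-05 and 0.0029), also with no overlap. Dnm1l did not separate them (-0.04 ± 0.07, adjusted p = 0.631). In all, 4 of the 10 genes were higher and 4 lower, against 34.1% and 35.0% of all genes. The 3 remaining calls had overlapping libraries: Pprc1 at -0.31 (adjusted p = 0.022), Tfam at 0.16 (0.0316) and Esrra at 0.20 (0.0436, and 0.0627 with a replicate block). They were the ones lost when single libraries were left out, and 5 of 10 genes were called without peak GC replicate 1 or without in vivo activated replicate 3. Without peak GC replicate 1 the difference of Pprc1 was -0.17 (adjusted p = 0.179) and that of Esrra 0.12 (0.249), and without in vivo activated replicate 2 Ppargc1b was called at -0.42 (0.011). Of the tested marker genes, 4 of 6 macrophage and monocyte genes were higher in peak GC than in in vivo activated cells, and 1 was lower. All 4 neutrophil and all 4 erythroid genes were higher. The part of these markers in the differences between the 2 groups was not tested.

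Among the GC stages the 10 genes were nearly level. No gene was called between early and peak GC by limma, where 5.77% of all genes were higher and 7.42% lower in peak GC, and 1 gene, Nrf1, had an unadjusted p under 0.05 (-0.14, adjusted p = 0.149). From peak to late GC, Ppargc1b fell by 0.41 ± 0.14 (adjusted p = 0.0305) and Esrra by 0.38 ± 0.09 (adjusted p = 0.00216), with none higher, against 12.0% of all genes higher and 20.6% lower. From early to late GC, Ppargc1b fell by 0.57, Esrra by 0.42, Mfn2 by 0.20 and Nrf1 by 0.17 (adjusted p of 0.00383, 7.70e-04, 0.00538 and 0.0296), against 13.0% higher and 22.1% lower. Esrra libraries were 4.21, 4.24 and 4.30 in early, 4.38, 4.31 and 3.95 in peak and 3.65, 3.88 and 3.96 in late GC cells, so peak and late overlapped in 1 library each. Of the tested marker genes, 5 of 6 macrophage and monocyte, 4 of 4 neutrophil and 4 of 4 erythroid genes were higher in late than in peak GC cells, and 3, 2 and 2 of them were higher in late than in early GC cells. Of 4 T cell genes, 1 was higher in late than in peak and 3 than in early GC cells. Of 7 B cell genes, 4 were lower and 0 higher in late than in peak and than in early GC cells (medians of -0.20 and -0.21). The part of these markers in the differences between GC stages was not tested.

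The peak to late comparison rested on few libraries. The call of Ppargc1b was lost without peak GC replicate 1 or 2 or late GC replicate 1 or 3 (adjusted p 0.0587 to 0.119), leaving 1 gene called, while 4 were called without peak GC replicate 3. A fit of those 2 groups alone called 0 of the 10 genes. The call of Nrf1 between early and late GC was lost without early GC replicate 2 or 3 or late GC replicate 1 or 2 (0.0705 to 0.128), and Tfam was called without early GC replicate 3 (-0.20, 0.0298).

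Across the 24 libraries the 10 genes fell into patterns that ran against each other. Mfn1 went with Opa1 (Pearson's r = 0.91) and with Mfn2 (r = 0.90), Pprc1 with Mfn2 (r = 0.89), and Ppargc1b with Esrra (r = 0.84) and with Tfam (r = 0.79). Nrf1 went with Polg (r = 0.90), and both ran opposite to the fusion genes: r was -0.89 for Mfn1 with Polg and -0.88 for Nrf1 with Mfn2 and with Pprc1. The 24 points are 8 groups of 3 libraries that share a group mean, so these coefficients describe the group pattern and carry no test. They, and those of the nearest genes below, also cross the split in Y-linked and Xist RNA. Nrf1 and Polg had their highest group means in the GC and in vivo activated groups, where Ddx3y was at the floor. The part of that split in the coefficients was not tested.

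**Figure D3:**
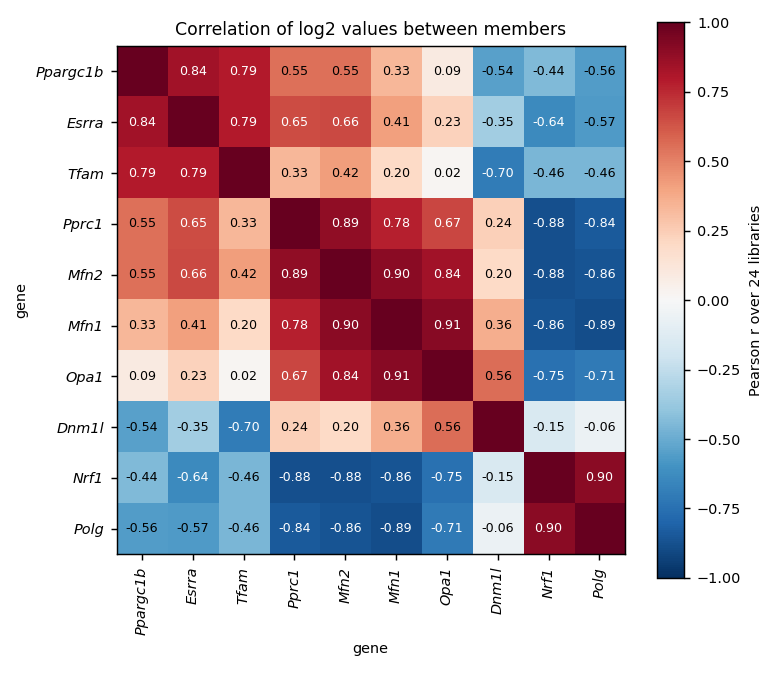
Pearson's r between each pair of the 10 genes over the 24 libraries, from -1 to 1 on the colour scale. Mfn1, Mfn2, Opa1 and Pprc1 are positively related, and Nrf1 and Polg (r = 0.90) are negatively related to Mfn1 and Mfn2.

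The genes whose pattern was most like each member's were taken by Pearson's r over the same 24 libraries, among 8571 genes with group means spanning at least 1 on the log2 scale. For Pprc1 they were Dhx33, Pwp2 and Urb1 (each r = 0.985), and for Ppargc1b Cul9, Sfn and Slc26a10 (0.963, 0.961 and 0.957). Nrf1 was nearest to Clec12a, Dhx58 and Txndc16, and Polg to C2cd2l, Spef1 and Abca3, all at r of 0.959 to 0.965. Tfam had less close neighbours, Mlycd, Mink1 and Pdk1 (0.916, 0.916 and 0.907), as did Dnm1l with Mplkip, Hnrnpr and Cdc16 (0.928 to 0.906) and Esrra with Gpsm1, Zdhhc8 and Trim3 (0.951 to 0.899). Mfn1 was nearest to Nemf, Atf2 and Abhd14a, Mfn2 to Txnrd1, Gigyf2 and Kat2a, and Opa1 to Pitrm1, Ogt and Pdcl3, at r from 0.951 to 0.975.

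The wider gene lists around these members include the members themselves, and their counts are read beside the share of all genes called: 40.5% higher and 39.3% lower in peak GC, 39.2% and 40.1% in in vivo activated cells and 42.2% and 42.5% at 24 h, each against naive cells. Protein import, the machinery that takes nuclear-encoded proteins into the organelle, had 19 of its 23 genes higher in peak GC than in naive cells and none lower, with a median difference of 0.72 against 0.01 for all genes, and 22 of 23 were higher at 24 h, with a median of 1.34 against -0.01. The pore gene Tomm40 stood at 7.97 ± 0.09 at 24 h against 5.63 ± 0.07 in naive cells (SD, n = 3), a rise of 2.33 ± 0.07 (SE, adjusted p = 2.37e-19). Timm22, of the inner membrane carrier translocase, was 1.37 ± 0.06 higher in peak GC cells (adjusted p = 2.28e-16). Cristae organisation genes were called higher in 6 of 10 in peak GC cells, 8 in in vivo activated cells and all 10 at 24 h, with none lower, against 40.5%, 39.2% and 42.2% of all genes higher. Immt, which encodes the MICOS scaffold mitofilin, was higher by 0.63 in peak GC cells, 0.97 in in vivo activated cells and 1.65 at 24 h.

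**Figure D4:**
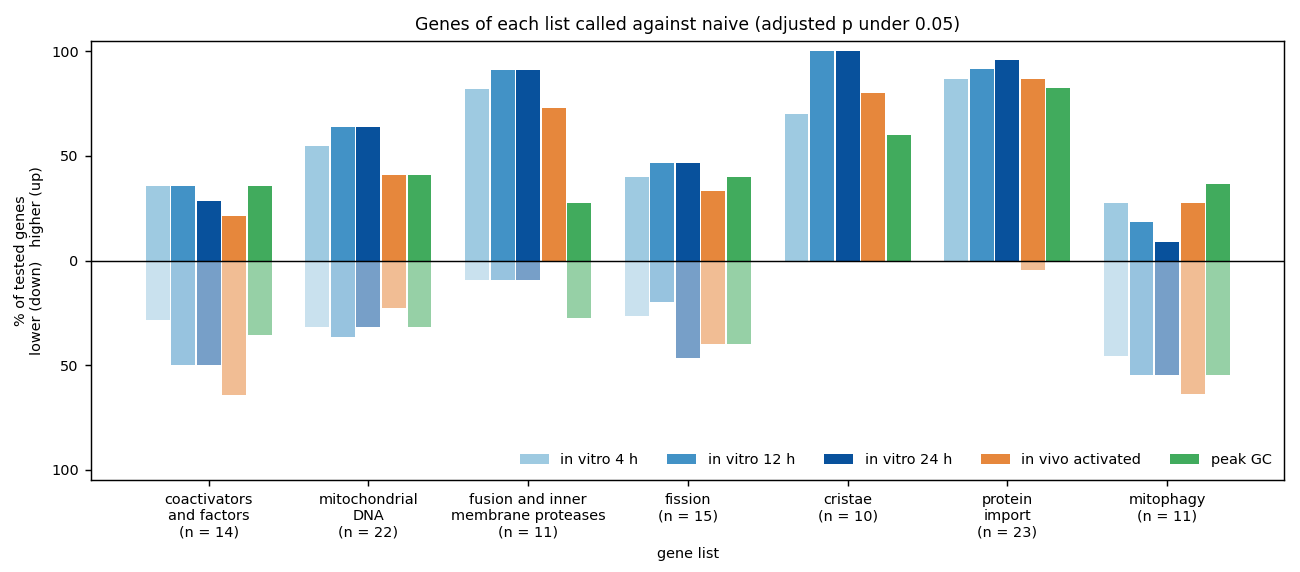
Percent of the tested genes of 7 mitochondrial gene lists that were called higher (bars up) or lower (pale bars down) than in naive cells in each of 5 comparisons, with the number of tested genes under each list. Protein import has 19 to 22 of 23 genes higher in every comparison, and the fusion list has 8 to 10 of 11 genes higher in in vivo and in vitro activated cells but 3 in peak GC cells.

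The fusion and inner membrane protease list held 11 tested genes. Of these, 3 were higher and 3 lower in peak GC than in naive cells, 8 were higher and 0 lower in in vivo activated cells, and 10 were higher and 1 lower at 24 h. Between peak GC and in vivo activated cells 10 of 11 were lower in peak GC and 1 higher, against 35.0% and 34.1% of all genes. The median was -0.34 against -0.01 for all genes. The prohibitin gene Phb2, whose product supports OPA1 processing, was at 8.5 ± 0.07 in in vivo activated and 8.16 ± 0.07 in peak GC cells, and Spg7, of an inner membrane protease, was the gene that was higher in peak GC (0.23 ± 0.06, adjusted p = 0.00147). Of 15 tested fission genes, 6 were higher and 6 lower in peak GC cells and 7 and 7 at 24 h, shares near those of all genes. Mtfr2, a fission regulator gene, was at 3.31 ± 0.41 in peak GC cells against -0.48 ± 0.49 in naive cells (difference 3.80 ± 0.22, adjusted p = 2.09e-13).

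Of 22 genes for copying, transcribing and supplying mitochondrial DNA, 9 were higher and 7 lower in peak GC cells, near the shares of all genes, and 14 were higher and 7 lower at 24 h. Dna2, a nuclease and helicase that also serves nuclear DNA replication, was higher by 4.28 ± 0.08 in peak GC cells, and Tk2, the mitochondrial thymidine kinase, was lower by a difference of -2.40 ± 0.08. Rrm2b, the p53-inducible ribonucleotide reductase subunit, stood at 5.15 ± 0.07 in naive cells, 6.85 ± 0.23 at peak GC and 4.28 ± 0.03 after in vivo activation. Of the coactivators and factors, 14 of 20 passed the filter, and Ppargc1a, the gene of PGC-1 alpha, did not. Among those 14, 5 were higher and 5 lower in peak GC cells, also near the background, with Tfb1m, an rRNA methyltransferase of the mitochondrial ribosome, up by 1.16 ± 0.10 and Ppard, a nuclear receptor gene, at -1.53 ± 0.13 (adjusted p of 1.29e-10 and 1.80e-10). Mitophagy genes were higher in 4 and lower in 6 of 11 in peak GC cells. Optn, an autophagy receptor gene, was higher there by 3.32 ± 0.07, and Pink1, whose kinase marks damaged mitochondria, was lower in peak GC (-1.67), in in vivo activated cells (-1.72) and at 24 h (-2.51). None of the 13 mitochondrially encoded messenger RNAs was matched by symbol or synonym among the 23420 genes, so they were not analysed here.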

How the data were processed

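RNA was extracted and made into stranded mRNA libraries read as paired ends, per the labels' protocols. The submitters' processing notes list STAR 2.6.0c, Subread 1.6.2 with featureCounts, cutadapt 1.8.3, limma and FastQC 0.11.5, and the build mm10. How these were set, and whether counting used strand, is not given in the sources used here. The deposited values are log2 values for each library, with totals close to those of log2 CPM and nearly the same distribution in every library. The mean over libraries with the same replicate number is equal between numbers in every gene to within 0.0009, as it would be after a replicate term was taken out. The sources used here do not state that step.

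The members and all gene lists were chosen with earlier results of these data known. Genes at or above 1 CPM (log2 of 0) in at least 3 libraries were kept (11885 of 23420). A model with 8 group means was fitted by limma 3.58.1 in R 4.3.3 (trend and robust, 16 residual degrees of freedom) to all 24 libraries, with Benjamini-Hochberg adjustment in each of 11 comparisons. If a replicate term was taken out before deposit, 14 residual degrees of freedom remain, and this model's SE and adjusted p are somewhat too small. The replicate block fit, with 14, allows for that. The code was tested on simulated data. In each of the related lists, up to 2 called genes per direction with the smallest adjusted p were eligible to be named in 4 comparisons (peak GC, in vivo activated and 24 h with naive, and peak GC with in vivo activated cells), and the 3 nearest genes per member. Levels per kilobase used GENCODE vM21 exon unions. Symbols were also matched by synonym. Promoter windows and motif letters were read from RefSeq with Python 3.11.15. The alternatives were no filter, a filter of 4 CPM, a pseudocount of 1, limma without trend and robust, median centring, the 2 groups compared alone, a replicate block, and each library left out.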

Additional observations from a re-analysis of the deposited data

How the results depend on the processing

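The counts of called members kept within 1.5 times of the values above in all 11 comparisons with no filter, a filter of 4 CPM, a pseudocount of 1, limma without trend and robust, median centring, and a replicate block. With only the 2 groups compared, the count was 5 instead of 8 in peak GC against in vivo activated cells, 0 instead of 2 from peak to late GC and 2 instead of 4 from early to late GC. That fit uses fewer libraries for the spread.

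The replicate block ended 3 calls and no other: Nrf1 in in vivo activated against naive cells (0.14, adjusted p = 0.0631), Polg at 24 h against naive cells (-0.15, 0.0639) and Esrra in peak GC against in vivo activated cells (0.20, 0.0627). Whether the replicate numbers pair the libraries cannot be read from the deposited values, because the means of the replicate numbers are equal in every gene to within 0.0009. The correlation of residuals between libraries of the same number (median -0.127) is then pushed below 0 and is no test of pairing. The same 3 calls were also lost with no filter on low values.

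With single libraries left out, the count of called members ranged from 8 to 9 in peak GC, 7 to 8 in in vivo activated, 8 to 9 at 4 h, 9 to 10 at 12 h and 8 to 9 at 24 h, each against naive cells. It ranged from 6 to 7 from 4 h to 12 h, 6 to 7 from 12 h to 24 h, 5 to 7 between peak GC and in vivo activated cells, 0 to 0 from early to peak GC, 1 to 4 from peak to late GC, and 3 to 4 from early to late GC. Where 1 arm then held 2 libraries, its spread came from all groups. Only differences that were not called changed sign. From early to peak GC these were Dnm1l (-0.04 to 0.04), Esrra (-0.12 to 0.09), Polg (-0.05 to 0.10), Pprc1 (-0.06 to 0.17) and Tfam (-0.10 to 0.01). From peak to late GC they were Dnm1l (-0.04 to 0.05), Mfn1 (-0.05 to 0.04), Nrf1 (-0.10 to 0.00) and Opa1 (-0.08 to 0.00), the last pair crossing 0 by less than the rounding. The others were Dnm1l from early to late GC (-0.03 to 0.04) and in peak GC against in vivo activated cells (-0.08 to 0.00, also within the rounding), Opa1 in peak GC against naive cells (-0.02 to 0.07) and Polg from 4 h to 12 h (-0.08 to 0.01). The cause was not tested. Depth is unknown, so no limit of detection can be given.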
